A study of Rattus norvegicus with 54 samples.

Results

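Small leucine-rich proteoglycans (SLRPs) are a family of secreted matrix proteins built around a core of leucine-rich repeats. The family was followed here through 9 genes, Dcn, Bgn, Lum, Fmod, Ogn, Omd, Prelp, Aspn and Podn, out of 40319 genes in each table. They were chosen by symbol, and each symbol stood once in all 54 tables. All 9 passed the filter on low counts in every comparison below.

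The libraries came from 18 female athymic F344/NJcl-rnu/rnu rats that were 8 weeks old when obtained and that, for lack of a thymus, make no mature T cells. Sham animals had surgery without infarction, MI animals had a permanent ligation of the left anterior descending coronary artery and no further treatment, and MI+Cell Sheet animals had the same ligation followed by a sheet of human smooth muscle cells and endothelial progenitor cells laid on the epicardium. Hearts were taken 1 week after surgery, and left ventricle below the stitch was divided into the anterior wall (infarct zone), the lateral wall (border zone) and the septum (remote zone), with 6 libraries for each of the 9 combinations. Only rat genes were counted, and transcripts of the human sheet were not analysed here. Reads were aligned to the rat genome, and the methods describe no step that set human reads apart. Within a group, libraries are named technical replicates in the labels whereas the methods describe separate animals, so p-values measure only the spread between these samples. Since the tissue is bulk, fewer cells of a type and less RNA per cell cannot be told apart.

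SLRP core proteins lie along collagen fibrils, where they set fibril thickness and spacing, and several of them bind growth factors such as TGF-β or signal to cells after their release from matrix. In the heart they are made mostly by fibroblasts, and the scar that replaces dead muscle is rich in them. Decorin (Dcn), biglycan (Bgn) and asporin (Aspn) form one class, of which the first members carry chondroitin or dermatan sulfate chains and asporin carries a run of aspartate instead. Lumican (Lum), fibromodulin (Fmod), osteomodulin (Omd) and PRELP (Prelp) form the class that includes the keratan sulfate proteoglycans, osteoglycin (Ogn) belongs to a further class, and podocan (Podn) is a more distant relative.

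Most of the members stand in clusters of related genes. In the RefSeq gene order of assembly GRCr8, Dcn and Lum are neighbours on chromosome 7, followed by the related genes Kera and Epyc. Prelp and Fmod are neighbours on chromosome 13, next to Optc. Ogn, Omd and Aspn follow one another on chromosome 17, while Bgn lies on chromosome X and Podn on chromosome 5. Promoter windows of 300 bases were found in RefSeq (GRCr8) for 6 members, and 4 are printed because they show how unlike the starts of neighbouring or related members are. They are Lum at chr7:34245456-34245755 (plus strand), Fmod at chr13:48045317-48045616 (plus strand), and the chromosome 17 pair Ogn at chr17:15258946-15259245 and Aspn at chr17:15310420-15310719 (both minus strand). Capitals mark matches, on either strand, to TATAAA (known as the TATA box), or to CAGAC (the core bound by SMAD proteins), or to GGAATG (bound by TEAD proteins), or to GGGCGG (bound by SP factors).
Lum: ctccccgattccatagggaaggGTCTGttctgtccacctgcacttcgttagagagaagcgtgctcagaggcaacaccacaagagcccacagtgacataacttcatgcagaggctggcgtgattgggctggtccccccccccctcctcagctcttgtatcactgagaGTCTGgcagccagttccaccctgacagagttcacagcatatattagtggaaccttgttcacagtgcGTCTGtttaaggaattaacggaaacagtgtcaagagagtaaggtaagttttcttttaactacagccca
Fmod: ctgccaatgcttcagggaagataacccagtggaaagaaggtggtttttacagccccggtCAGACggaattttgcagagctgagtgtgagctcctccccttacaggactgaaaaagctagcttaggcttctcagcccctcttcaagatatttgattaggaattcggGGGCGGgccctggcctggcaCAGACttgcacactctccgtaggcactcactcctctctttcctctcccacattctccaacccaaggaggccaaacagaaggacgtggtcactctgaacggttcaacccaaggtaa
Ogn: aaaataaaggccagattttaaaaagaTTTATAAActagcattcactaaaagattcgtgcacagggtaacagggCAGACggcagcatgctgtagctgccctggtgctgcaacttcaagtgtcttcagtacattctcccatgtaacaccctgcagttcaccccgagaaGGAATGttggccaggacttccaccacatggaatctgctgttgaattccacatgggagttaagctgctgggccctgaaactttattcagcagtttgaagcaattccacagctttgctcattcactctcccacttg
Aspn: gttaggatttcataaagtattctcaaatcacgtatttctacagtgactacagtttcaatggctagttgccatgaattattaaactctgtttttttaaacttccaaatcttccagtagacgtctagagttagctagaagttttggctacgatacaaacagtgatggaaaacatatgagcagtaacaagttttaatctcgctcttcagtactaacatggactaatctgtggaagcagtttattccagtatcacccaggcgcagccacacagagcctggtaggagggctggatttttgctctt
CAGAC was found in the Lum, Fmod and Ogn windows, beside 50.1% of 33469 rat promoters. TATAAA was in the Ogn window, beside 14.2%, where overlapping matches on both strands began at -224 and -222 from the start site. GGAATG was also in the Ogn window, beside 14.2%, and GGGCGG was in the Fmod and Podn windows, beside 33.1%. The AP-1 motif TGANTCA, held by 7.33% of promoters, was in none of the 6 windows. Neither the Aspn nor the Omd window held any of these letters. GC content was 39% for Aspn, 46% for Ogn, 50.7% for Lum and 52.7% for Fmod, against 76.3% for Podn.

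Counts on genes ranged from 12699204 to 23397754 per library, and the raw counts of the members from 21 (lowest Fmod) to 89331 (highest Bgn). Levels below are counts scaled to a common library size (CPM) with TMM factors over all 54 libraries. They are compared between groups and not between genes, as no gene lengths were used. Cell type scores are the mean log2 CPM of short marker lists. Sham replicate 5 stood apart in all 3 zones, with T cell marker scores of 6.26 to 6.68 against group medians of 0.52 to 0.89, macrophage scores of 8.15 to 8.53 against medians of 5.07 to 5.63, and cardiomyocyte scores of 10.5 to 11.3 against medians of 12.2 to 12.4. In the remote zone, cell sheet replicate 1 had a myofibroblast score of 7.93 against a median of 4.09 for its group. In the border zone the same animal had a cardiomyocyte score of 3.65 against a median of 10.6. Some values that rest on these libraries are also given without them.

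**Figure D1:**
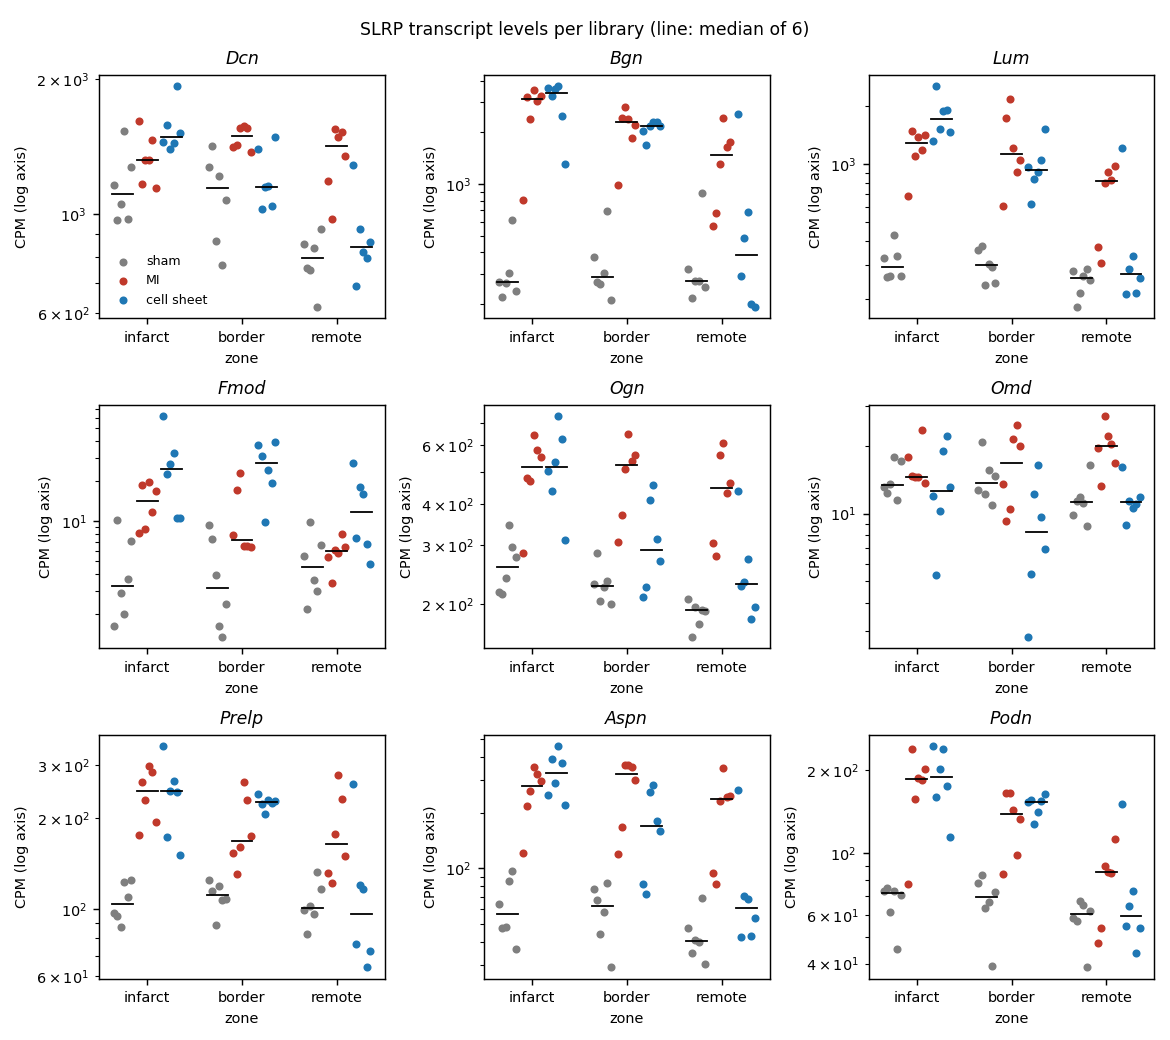
Level of each SLRP gene in every library, in CPM on a log axis, by zone, with sham in grey, MI in red and cell sheet in blue, and a line at the median of 6. Bgn, Lum and Aspn of MI hearts lie above all sham libraries in the infarct and border zones. In the remote zone 1 blue point, cell sheet replicate 1, sits far above the other 5 for these genes.

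The first question was how infarction alone changed the family. In the infarct zone, 7 of 9 members were higher in MI than in sham hearts by edgeR's quasi-likelihood test (Benjamini-Hochberg adjusted p under 0.05), where 22.7% of the 15758 genes tested were called higher. The members' median log2 fold change was 1.38 and that of all genes tested was -0.02. Bgn, Aspn and Lum changed most, and Dcn and Omd did not pass the test. Log2 fold changes are given ± SE from fits with 6 libraries a group.

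Biglycan, which also acts as a danger signal at toll-like receptors once it is free of matrix, was measured at 218 to 616 CPM with a median of 267 in sham and 801 to 3501 CPM with a median of 3137 in MI infarct zones. The groups did not overlap, although sham replicate 5 was the highest sham library and MI replicate 1, at 801 CPM, was far below the next MI library at 2391. The fitted rise was 8.38-fold (95% confidence interval 4.72 to 14.9, log2 fold change 3.07 ± 0.38, adjusted p = 0.000160), and 3.37 on the log2 scale without sham replicate 5. Asporin, which binds collagen and holds back TGF-β, rose, at 36.4 to 96.3 CPM with a median of 56.2 in sham and 121 to 353 CPM with a median of 281 in MI, again without overlap (4.14-fold, log2 fold change 2.05 ± 0.29, adjusted p = 0.000387). Decorin, a collagen and TGF-β binding proteoglycan, lay at 970.0 to 1529.9 CPM with a median of 1109 in sham and 1141 to 1611 CPM with a median of 1319 in MI. The Dcn groups overlapped, and the log2 difference of 0.20 (95% interval -0.15 to 0.54, adjusted p = 0.316) did not pass.

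Among the members related to keratan sulfate proteoglycans, lumican, which limits fibril diameter, rose, at 259 to 429.6 CPM with a median of 294 in sham and 686 to 1478 CPM with a median of 1281 in MI without overlap of the groups (3.83-fold, log2 fold change 1.94 ± 0.21, adjusted p = 6.73e-05). PRELP, thought to tie basement membranes to connective tissue, rose, at 87.1 to 125 CPM with a median of 104 in sham and 175 to 297 CPM with a median of 246 in MI (log2 fold change 1.17 ± 0.15, adjusted p = 0.000218), and its groups also stood apart. Fibromodulin, which guides collagen cross-linking, was scarce and variable, at 1.62 to 10.1 CPM with a median of 3.26 in sham and 8.15 to 19.6 CPM with a median of 14.3 in MI, and rose with a wide interval (3.03-fold, interval 1.56 to 5.89, adjusted p = 0.0107). Sham replicate 2, at 10.1 CPM, reached into the MI range. Osteomodulin, best known from bone matrix, did not pass, with medians of 13.4 and 14.6 CPM and a log2 difference of 0.20 (95% interval -0.16 to 0.56, adjusted p = 0.331).

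Osteoglycin, a small collagen-binding proteoglycan of fibroblasts, rose, at 214 to 346 CPM with a median of 258 in sham and 284 to 643 CPM with a median of 516 in MI (log2 fold change 0.91 ± 0.19, adjusted p = 0.00313), with only MI replicate 1 inside the sham range. Podocan, known for restraining smooth muscle growth, rose, at 45.3 to 74.8 CPM with a median of 71.9 in sham and 77.5 to 237 CPM with a median of 185 in MI (log2 fold change 1.38 ± 0.22, adjusted p = 0.000768). The lowest MI library was again replicate 1, just above the highest sham library. Under library size scaling without TMM factors the median of all genes moved from -0.02 to 0.24 and Dcn and Omd also passed the test, at 0.46 and 0.47 on the log2 scale.

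In the border zone 7 members were higher in MI, where 18.4% of 15641 genes were called higher. Bgn stood at 211 to 699 CPM with a median of 286 in sham and 981 to 2795 CPM with a median of 2303 in MI and rose 5.99-fold (log2 fold change 2.58 ± 0.33, adjusted p = 0.000352). Aspn rose 4.66-fold (log2 fold change 2.22 ± 0.33, adjusted p = 0.000705) and Lum 4.26-fold (log2 fold change 2.09 ± 0.28, adjusted p = 0.000435), from medians of 62.7 to 326 and of 298 to 1130.2 CPM. The groups of these 3 genes, and those of Ogn, Prelp and Podn, did not overlap. The share of all genes whose MI and sham groups stood apart in this way was not counted, here or in the other zones. Ogn changed by 1.10 (adjusted p = 0.00119) on the log2 scale, Prelp by 0.75 (adjusted p = 0.00547) and Podn by 0.97 (adjusted p = 0.00445). Dcn passed narrowly, with sham at 769 to 1415 CPM with a median of 1145 and MI at 1373 to 1572 CPM with a median of 1492 (log2 fold change 0.43 ± 0.16, adjusted p = 0.0499), and failed when 11 of the 12 libraries were left out in turn, at adjusted p from 0.0565 to 0.111. Fmod missed the threshold at 1.39 (95% interval 0.23 to 2.54, adjusted p = 0.0530) but passed without sham replicate 1 (adjusted p = 0.0272) or sham replicate 2 (adjusted p = 0.0481), and Omd did not pass (log2 fold change 0.20, interval -0.35 to 0.76, adjusted p = 0.540).

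The septum, which is not itself infarcted, showed 7 members higher in MI, where 11.7% of 15294 genes were called higher. Dcn rose there, at 619 to 927 CPM with a median of 797 in sham and 975 to 1551 CPM with a median of 1416 in MI without overlap (1.70-fold, log2 fold change 0.76 ± 0.14, adjusted p = 0.00269), and Omd rose, at 8.85 to 16.5 CPM with a median of 11.3 in sham and 13.2 to 27.2 CPM with a median of 19.97 in MI (1.71-fold, log2 fold change 0.77 ± 0.19, adjusted p = 0.00959). Both genes were the ones that had not passed in the infarct zone. Aspn had the largest change of the 9 members in this zone (4.74-fold, adjusted p = 0.00133), at 30.5 to 68.7 CPM with a median of 40.5 in sham and 81.8 to 349.8 CPM with a median of 237 in MI. Ogn rose 2.37-fold without overlap (log2 fold change 1.24 ± 0.18, adjusted p = 0.00105). Bgn (3.76-fold, adjusted p = 0.00693) ran from 217 to 888 CPM with a median of 271 in sham to 569 to 2407 CPM with a median of 1468 in MI, and the sham library that overlapped was replicate 5, without which the log2 fold change was 2.39 in place of 1.91. Lum (1.502 on the log2 scale, adjusted p = 0.00251) and Prelp (0.79, adjusted p = 0.0125) rose as well. Fmod did not pass (0.19, 95% interval -0.53 to 0.92, adjusted p = 0.705), nor did Podn (0.44, interval 0.01 to 0.88, adjusted p = 0.118), which passed without MI replicate 1 (0.58, adjusted p = 0.0342).

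Marker scores moved with these changes. Fibroblast scores had medians of 6.92, 7.12 and 6.71 in sham (infarct, border, remote) and 7.89, 7.66 and 7.66 in MI. In each zone 6 of 8 fibroblast markers rose, beside 22.7%, 18.4% and 11.7% of all genes called higher. Their summed level went the other way, with medians of 4771, 5409 and 3660.0 CPM in sham and 3851, 3615 and 3457 CPM in MI. Gelsolin (Gsn), the most abundant of the 8, fell in the infarct zone (log2 -1.39, adjusted p = 0.0221) and the border zone (-1.61, adjusted p = 0.00928) and was at -0.55 in the remote zone (adjusted p = 0.126). Myofibroblast scores went from 2.73, 2.86 and 2.79 to 7.62, 7.24 and 6.09, and cardiomyocyte scores from 12.2, 12.2 and 12.4 to 9.53, 10.5 and 11.3. No marker of these 3 lists was at 0 in any group. With the fibroblast score as a covariate, Bgn, Lum, Aspn and Podn still passed in the infarct zone (log2 fold changes 3.26, 1.80, 1.77 and 1.44, where 15.3% of all genes were called). Fmod, Prelp and Ogn lost their calls there at 2.29, 0.74 and 0.56 (adjusted p = 0.0649, 0.0514 and 0.191), the Fmod change being larger than without the covariate (1.60). In the border zone Bgn, Lum, Ogn, Aspn and Podn passed (2.98, 2.20, 0.81, 1.94 and 0.89, where 54.2% of genes were called). No member passed in the remote zone, where 1 of all genes did (0.00654%). Remote fibroblast scores ran from 6.30 to 6.87 in sham and from 6.89 to 7.83 in MI. As they did not overlap, this fit could hardly part the score from infarction in the remote zone. There Bgn was at 1.57 and Aspn at 1.19 (adjusted p = 0.450 and 0.402), Dcn, Lum, Ogn, Omd and Prelp lay between 0.19 and 0.56, and only Podn had an unadjusted p under 0.05 (-0.54, adjusted p = 0.249). With the cardiomyocyte score as a covariate, Bgn, Lum and Prelp passed in the infarct zone (1.96, 1.38 and 0.99, with 3.64% of genes called), and Bgn, Lum, Ogn, Prelp and Aspn in the border zone (1.87, 1.26, 1.197, 1.05 and 2.07, with 6.17% called). Dcn alone passed in the remote zone (0.75, with 15.0% called), where Ogn was at 0.86, Omd at 0.83 and Aspn at 0.98 (adjusted p = 0.0612, 0.105 and 0.139). Cardiomyocyte scores of sham and MI overlapped only through sham replicate 5 (10.6, 10.5 and 11.3 in infarct, border and remote zones). The cardiomyocyte fits could therefore hardly part the score from infarction in any zone.

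The size of the infarct effect differed between the infarct and the remote zone for 4 members in a test of the interaction that held the animal as a block, where 28.9% of 16445 genes were called in either direction. The effect was larger in the infarct zone for Bgn, by 1.10 ± 0.27 on the log2 scale (adjusted p = 0.00926), and for Podn, by 0.92 ± 0.20 (adjusted p = 0.00560). It was smaller there for Dcn, with a difference of -0.55 ± 0.17 (adjusted p = 0.0302), and for Omd, with -0.57 ± 0.19 (adjusted p = 0.0396). Leaving out 1 animal ended the Dcn call in 8 of 12 cases (sham or MI replicates 3 to 6, adjusted p from 0.0502 to 0.0695) and the Omd call in 8 (sham replicates 1 to 5, MI replicates 3, 4 and 6, from 0.0504 to 0.0885), and neither the Bgn nor the Podn call. The largest difference, that of Fmod (1.48 ± 0.59), was not called (adjusted p = 0.0747) but passed without sham replicate 2 (adjusted p = 0.0136), and Prelp (0.42, adjusted p = 0.0661) passed without MI replicate 4 (adjusted p = 0.0461). For Aspn the difference was -0.05 with a 95% interval of -0.52 to 0.41.

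Within hearts, the infarct zone was compared with the remote zone of the same animal. In sham hearts 6 members were slightly higher in the anterior wall than in the septum, where 15.9% of 15077 genes were called higher. These were Dcn (log2 0.54, adjusted p = 0.000136), Aspn (0.49, adjusted p = 0.000796), Ogn (0.49, adjusted p = 0.000968), Lum (0.33, adjusted p = 0.00482), Omd (0.30, adjusted p = 0.0388) and Podn (0.19, adjusted p = 0.0421). Leaving out 1 animal gave 4 to 5 members, with Omd lost in 4 of 6 cases (adjusted p from 0.0540 to 0.141) and Podn in 5 (from 0.0684 to 0.131), and DESeq2 called neither (adjusted p = 0.0623 and 0.0677). Bgn, at -0.12 with an interval of -0.30 to 0.05, was not called. In MI hearts 5 members were higher in the infarct zone (18.3% of 15901 genes), which were Fmod (1.18, adjusted p = 0.0148), Podn (1.10, adjusted p = 0.00880), Bgn (0.96, adjusted p = 0.0212), Lum (0.84, adjusted p = 0.0327) and Prelp (0.43, adjusted p = 0.0413). On leaving out 1 animal 2 to 4 members passed, as Prelp was lost in all 6 cases (adjusted p from 0.0554 to 0.0835), Lum without MI replicate 1, 4, 5 or 6 (from 0.0585 to 0.0695) and Bgn without MI replicate 5 or 6 (0.0535 and 0.0542). Dcn showed a difference of -0.02 there, with an interval of -0.38 to 0.35. In cell sheet hearts 8 members were higher (31.5% of 15854 genes), from 0.80 for Dcn to 2.65 for Bgn, with 2.42 for Lum and 2.21 for Aspn, and Omd at 0.10 was not called.

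The second question was whether the cell sheet changed the family after infarction. For the infarct zone none of the 9 members passed the test, and neither did any of the 16196 genes (0%) by edgeR or any member by DESeq2. At an unadjusted p under 0.05 there were 2 members, Lum and Fmod. The share of all genes under that unadjusted level was not counted, here or in the comparisons below, so such counts of members have no background. Lum stood at 1318 to 2549 CPM with a median of 1705 with the sheet against 686 to 1478 CPM with a median of 1281 in MI (log2 fold change 0.55, interval 0.10 to 1.01, adjusted p = 0.516). Fmod stood at 10.5 to 61.8 CPM with a median of 24.6 against 8.15 to 19.6 CPM with a median of 14.3 (log2 fold change 0.97, interval 0.07 to 1.87, adjusted p = 0.571). In both genes the groups overlapped. Without cell sheet replicate 1, which held the 61.8 CPM, Fmod was at 0.56 on the log2 scale by edgeR (unadjusted p = 0.137). Lum was then at 0.63 (unadjusted p = 0.0140). The other 7 members differed by -0.28 to 0.32 on the log2 scale, and for Bgn the interval of -0.59 to 0.87 shows how loosely its groups bound the difference. Cell sheet replicate 6 was lowest of its group for Bgn (1312 CPM, next 2484), Fmod, Ogn, Prelp, Aspn and Podn. It had a cardiomyocyte score of 11.3 and a skeletal muscle score of 5.08 (group medians 7.56 and -0.83). In MI and cell sheet groups median scores were 9.53 and 7.56 (cardiomyocyte) and 7.62 and 8.31 (myofibroblast). The part of these differences was not tested.

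For the border zone no member passed, although 18.0% of 16272 genes were called in either direction. At an unadjusted p under 0.05 there were 4 members, and DESeq2 called 3 (Dcn and Ogn lower, Fmod higher), beside 24.2% of all genes. Fmod was at 6.37 to 22.9 CPM with a median of 7.18 in MI and 9.85 to 39.1 CPM with a median of 27.5 with the sheet, so that 4 of 6 cell sheet libraries lay above all of MI, and the fitted ratio was 2.38-fold (interval 1.29 to 4.42, log2 fold change 1.25 ± 0.41, adjusted p = 0.0526). Adipocyte marker scores in these libraries ran from -1.65 to 2.98 in MI and from -1.83 to 6.87 with the sheet, and with that score as a covariate the Fmod difference was 0.62 (adjusted p = 0.421). Ogn differed in the other direction, at 308 to 649 CPM with a median of 524 in MI and 210.3 to 456 CPM with a median of 291 with the sheet (log2 fold change -0.64 ± 0.24, adjusted p = 0.0795). Omd had medians of 16.7 and 8.30 CPM and its lowest value of all 54 libraries, 2.82, in cell sheet replicate 1 (log2 fold change -0.90, interval -1.74 to -0.05, adjusted p = 0.131). Without that library Omd was at -0.71 (adjusted p = 0.159) and Fmod at 1.14 (adjusted p = 0.0839) by edgeR. Dcn differed by -0.29 (interval -0.59 to 0.00, adjusted p = 0.152) and Aspn by -0.69 (interval -1.52 to 0.14, adjusted p = 0.234). For Bgn the difference was 0.00 with an interval of -0.48 to 0.49. Lum was at -0.38, Prelp at 0.28 and Podn at 0.19 (adjusted p = 0.425, 0.242 and 0.450). Prelp and Podn were also tight with the sheet, with coefficients of variation of 4.87% and 8.58% against 27.3% and 25.7% in MI.

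The remote zone had 3 members that were lower with the sheet, where 6.79% of 15374 genes were called lower, and none was higher, where 10.3% were called higher. Dcn fell, at 975 to 1551 CPM with a median of 1416 in MI and 689.9 to 1284 CPM with a median of 843 with the sheet (0.660-fold, log2 fold change -0.60 ± 0.18, adjusted p = 0.0362). Ogn fell, at 279 to 608 CPM with a median of 446 in MI and 179.7 to 438 CPM with a median of 229.7 with the sheet (0.578-fold, log2 fold change -0.79 ± 0.25, adjusted p = 0.0438) and Omd fell, at 13.2 to 27.2 CPM with a median of 19.97 in MI and 8.88 to 16.2 CPM with a median of 11.2 with the sheet (0.580-fold, log2 fold change -0.78 ± 0.18, adjusted p = 0.0157). In each gene 5 of 6 cell sheet libraries lay below all MI libraries and replicate 1 lay within them. Fmod, at 3.41 to 8.05 CPM with a median of 5.92 in MI and 4.80 to 27.2 CPM with a median of 11.8 with the sheet, missed the threshold in the other direction (2.26-fold, log2 fold change 1.18 ± 0.39, adjusted p = 0.0508).

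Cell sheet replicate 1 held the highest level of its group for all 9 members in this zone. Its Bgn was 2545 CPM against at most 687 in the other 5 libraries, its Lum 1206 against 335, its Prelp 259.6 against 119.9 and its Aspn 266 against 70.9. With it, Bgn (log2 -0.93, adjusted p = 0.299), Lum (-0.75, adjusted p = 0.261), Prelp (-0.63, adjusted p = 0.195) and Aspn (-1.21, adjusted p = 0.103) did not pass. Without it 7 members were lower, which were Dcn, Ogn, Omd, Bgn, Aspn, Lum and Prelp, with log2 fold changes of -1.93, -1.92, -1.44 and -1.03 for the last 4 (adjusted p = 0.00303, 0.000877, 0.00172 and 0.00382), and 6450 of 15502 genes (41.6%) were called in either direction. Without any 1 of 9 other libraries (MI replicates 3 to 6 and cell sheet replicates 2 to 6), Dcn and Ogn were no longer called, with adjusted p from 0.0557 to 0.0866 for Dcn and from 0.0692 to 0.0971 for Ogn, and Omd was. Fmod passed without cell sheet replicate 6 (adjusted p = 0.0328), when Dcn and Ogn did not. The fibroblast score of MI remote libraries was 6.89 to 7.83 and that of cell sheet libraries 6.42 to 7.77 (summed marker levels 2612 to 4107 and 2418 to 3555 CPM). Other scores moved as well, with medians in MI and cell sheet remote libraries of 6.09 and 4.09 (myofibroblast), 7.08 and 5.28 (macrophage), 2.96 and 0.47 (neutrophil) and 11.3 and 12.1 (cardiomyocyte). Reads that fell in no gene were 24.1% to 35.3% in MI and 18.0% to 26.6% with the sheet. The part of these differences in the fall of Dcn, Ogn and Omd was not tested. With the fibroblast score as a covariate Dcn, Ogn and Omd did not pass (log2 -0.21, -0.17 and -0.45), and Fmod and Podn were higher with the sheet (2.01 and 0.61, adjusted p = 0.00322 and 0.0203), where 5.31% of genes were called. Only cell sheet replicates 1 and 4 (scores 7.77 and 6.95) lay within the MI range of that score. The fit thus rested largely on these libraries to part the score from treatment.

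**Figure D2:**
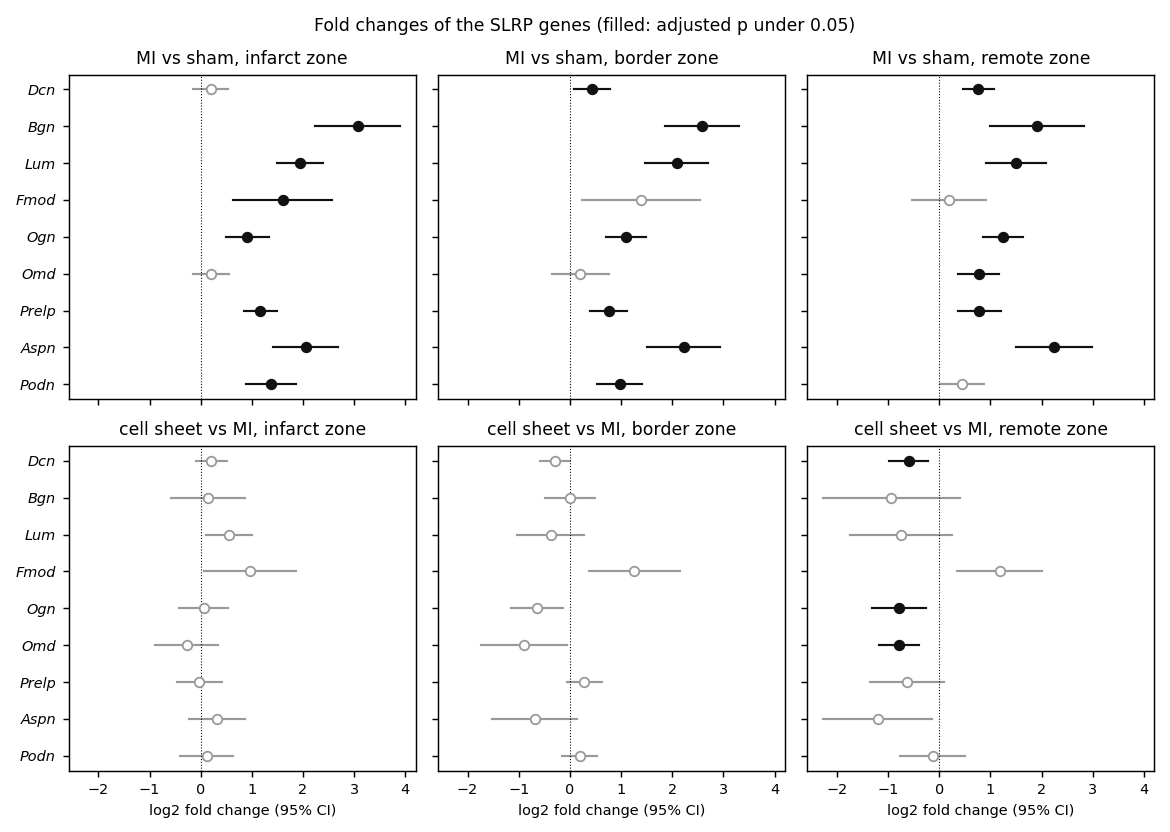
Log2 fold changes of the 9 SLRP genes with 95% confidence intervals, MI against sham in the upper row and cell sheet against MI in the lower row, by zone. Filled points passed an adjusted p of 0.05. Filled points in the upper row lie to the right of 0, and the lower row holds 3 filled points, Dcn, Ogn and Omd in the remote zone, all to the left of 0.

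When the infarct and border libraries of an animal were summed, Fmod was higher with the sheet than in MI (2.13-fold, interval 1.42 to 3.19, log2 fold change 1.09 ± 0.27, adjusted p = 0.0237), where 6.02% of 17985 genes were called higher. DESeq2 also called it, with 18.6% of genes called in either direction, while leaving out MI replicate 5 or MI replicate 6 ended the call (adjusted p = 0.0519 and 0.0512). The other members lay between -0.58 and 0.14 and none was called. A difference in the sheet's effect between border and remote zones was called for no member and none of 16784 genes (0%) by edgeR, with 2 members at an unadjusted p under 0.05 and Prelp called by DESeq2 (7.05% of genes). These were Prelp, whose effect differed by 1.11 ± 0.28 (adjusted p = 0.0971), and Bgn, by 1.60 ± 0.61 (adjusted p = 0.183). Without cell sheet replicate 1 Bgn, Prelp and Aspn passed this test (differences 2.03, 1.33 and 1.22, adjusted p = 0.0480, 0.0361 and 0.0480), as did 216 of 16901 genes (1.28%). Between infarct and border zones 0 of 17275 genes (0%) were called, 4 members had an unadjusted p under 0.05 (Dcn, Lum, Ogn and Aspn, with differences of 0.51, 0.85, 0.69 and 1.08), and DESeq2 called Ogn (2.33% of genes).

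Against sham, the treated hearts kept higher levels near the infarct. In the infarct zone 7 members were higher with the sheet than in sham (28.6% of 15687 genes), including Bgn (9.53-fold), Fmod (5.97-fold), Lum (5.70-fold) and Aspn (5.29-fold). Dcn missed the threshold there (0.42, adjusted p = 0.0513) and passed without sham replicate 4 (adjusted p = 0.0251). In the border zone 6 were higher (20.4% of 15960 genes), with Fmod at 6.13-fold (log2 fold change 2.61 ± 0.52, adjusted p = 0.00183) and Prelp at 2.01-fold (log2 fold change 1.01 ± 0.09, adjusted p = 1.74e-05). The Fmod groups of cell sheet and sham did not overlap in either zone. Ogn differed from sham by 0.43 in the border zone (interval 0.01 to 0.85, adjusted p = 0.0871) and passed without cell sheet replicate 1 (adjusted p = 0.0342). In the remote zone no member passed, nor did more than 1 of 15157 genes (0.00660%) by edgeR, and DESeq2, which called 1.45% of genes, called none of the 8 members to which it gave a p (Lum had none). There, 3 members had an unadjusted p under 0.05, which were Fmod (1.38), Aspn (1.04) and Ogn (0.45), and the interval for Bgn reached from -0.43 to 2.39. These comparisons share their cell sheet or sham libraries with those above.

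The balance within the family was measured as the log2 ratio of each member's count to the Dcn count of the same library, which library scaling cannot change. Of 48 such ratios tested by an exact permutation test (2-sided, smallest possible p 0.00216, Benjamini-Hochberg adjusted over all 48), 5 of the infarct zone were higher in MI than in sham, beside 3 of the border zone and 1 of the remote zone. The Bgn ratio was 0.88 ± 0.96 against -1.94 ± 0.65 (SD) in MI and sham infarct zones, a difference of 2.83 (exact p = 0.00433, adjusted p = 0.0231). The Lum ratio differed by 1.72 (exact p = 0.00216, adjusted p = 0.0231), and all 6 MI libraries lay above all sham libraries. For Aspn the difference was 1.85 (exact p = 0.00433, adjusted p = 0.0231), for Prelp 0.95 (exact p = 0.00433, adjusted p = 0.0231) and for Podn 1.12 (exact p = 0.0108, adjusted p = 0.0433). Ratios of Bgn, Lum and Aspn in the border zone differed by 2.17 (exact p = 0.00433, adjusted p = 0.0231), 1.53 (exact p = 0.00216, adjusted p = 0.0231) and 1.72 (exact p = 0.00433, adjusted p = 0.0231). For the remote zone only the Aspn ratio did, by 1.36 (exact p = 0.00649, adjusted p = 0.0312), and none did without sham replicate 1, 3, 4 or 6, while 3 did without sham replicate 5 or MI replicate 1.

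As shares of the reads on the 9 genes, Dcn fell from a median of 52.1% in sham to 18.8% in MI infarct zones, while Bgn went from 11.8% to 44.2%. The medians with the cell sheet were 18.5% for Dcn and 40.1% for Bgn. In the remote zone the Dcn share had medians of 46.6% in sham, 31.6% in MI and 42.3% with the sheet. Together the members took a median of 0.202% of gene counts in sham, 0.777% in MI and 0.856% in cell sheet infarct zones, and 0.163%, 0.495% and 0.182% in remote zones.

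Between cell sheet and MI hearts, 3 of 8 ratios to Dcn differed in the border zone and 1 of 8 in the remote zone. Ratios of genes outside the family to Dcn were not tested in any comparison. The fitted Dcn level was itself lower with the sheet in both zones, and edgeR called this only in the remote zone. No ratio passed in the infarct zone by the exact test, where 1 of 8, that of Omd, had an unadjusted p under 0.05, with a difference of -0.60 (exact p = 0.0390, adjusted p = 0.0891). With the sheet, border zone ratios were higher for Fmod by 1.63 (exact p = 0.00866, adjusted p = 0.0378), for Prelp by 0.63 (exact p = 0.00433, adjusted p = 0.0231) and for Podn by 0.53 (exact p = 0.0130, adjusted p = 0.0480). Only 1 of these 3 passed when MI replicate 4, 5 or 6 or any cell sheet replicate other than 3 was left out, in a design with a higher smallest p. The Fmod ratio of the remote zone was -6.30 ± 0.79 against -7.86 ± 0.22, a difference of 1.56 (exact p = 0.00216, adjusted p = 0.0231), with all 6 cell sheet libraries above all 6 MI libraries, cell sheet replicate 1 included. Fmod reads rose against Dcn reads in both zones, although neither gene passed in the border zone when tested by itself. Mesothelial marker scores, which track the cells covering the heart, were 3.88 to 5.90 in MI and 1.12 to 5.38 in cell sheet remote zones and 3.71 to 6.42 and 2.82 to 6.80 in border zones, with medians of 4.43 and 3.36 in the remote and 5.12 and 6.00 in the border zone. Scores of mural cells, the smooth muscle cells and pericytes of vessels, were 5.40 to 6.32 in MI and 6.62 to 6.79 with the sheet in border zones and 5.47 to 6.00 and 6.20 to 6.96 in remote zones, without overlap in either. Of the 6 mural markers, none of them at 0 in any group, 3 were higher with the sheet in the border and 2 in the remote zone. Of all genes, 8.47% and 10.3% were called higher in these zones. The part of either cell type in the Fmod, Prelp and Podn ratios was not tested.

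**Figure D3:**
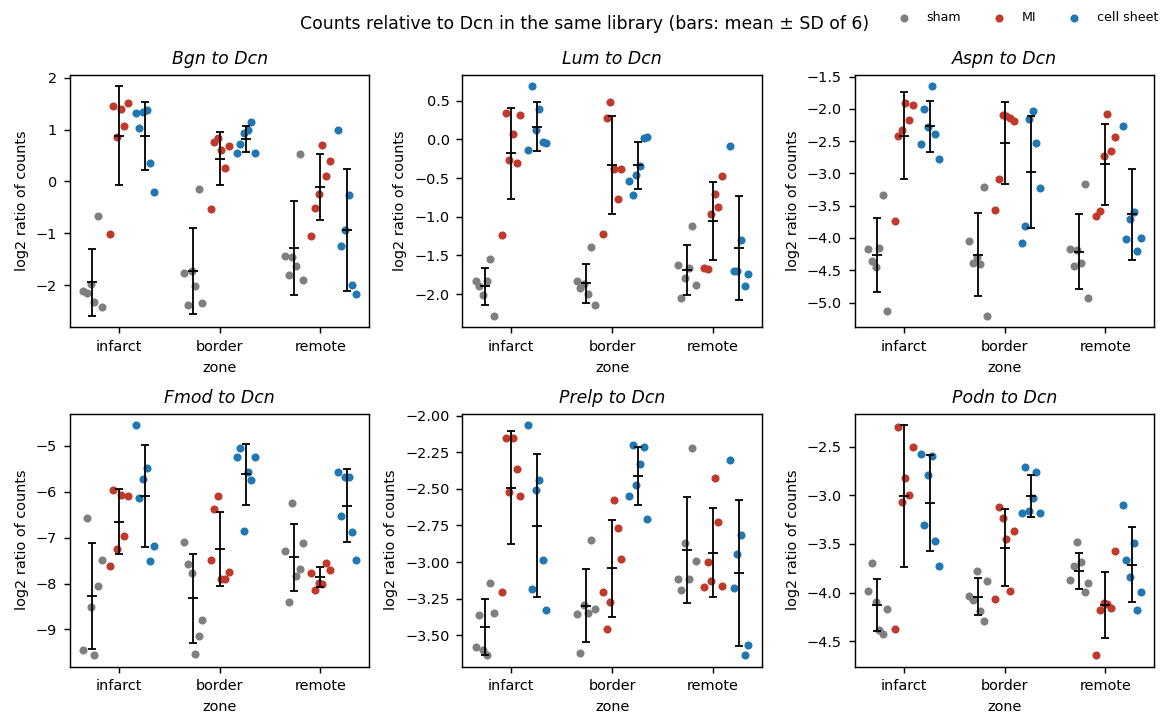
Log2 ratio of the count of Bgn, Lum, Aspn, Fmod, Prelp or Podn to the Dcn count of the same library, by zone, with sham in grey, MI in red and cell sheet in blue, and the mean ± SD of 6 libraries. The Lum ratio of MI infarct zones lies wholly above sham, and the Fmod ratio of cell sheet remote zones lies wholly above MI.

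Across the 54 libraries the members fell into groups that moved together. The following Pearson correlations of log2 CPM are descriptions, as the libraries share animals and the groups differ in level. They were highest between Bgn and Lum and between Ogn and Aspn (r = 0.94 for both), then between Bgn and Aspn and between Lum and Aspn (0.92 for both). After the mean of each of the 9 groups was taken away the values were 0.76, 0.85, 0.80 and 0.75. Dcn and Bgn, close relatives in sequence class, had r = 0.60 over levels and 0.09 over deviations. Omd lay apart, with r = 0.01 to Bgn and -0.31 to Fmod over levels and 0.57 to its chromosomal neighbour Ogn over deviations. Fmod was nearest to Podn (0.77 over levels, 0.61 over deviations).

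**Figure D4:**
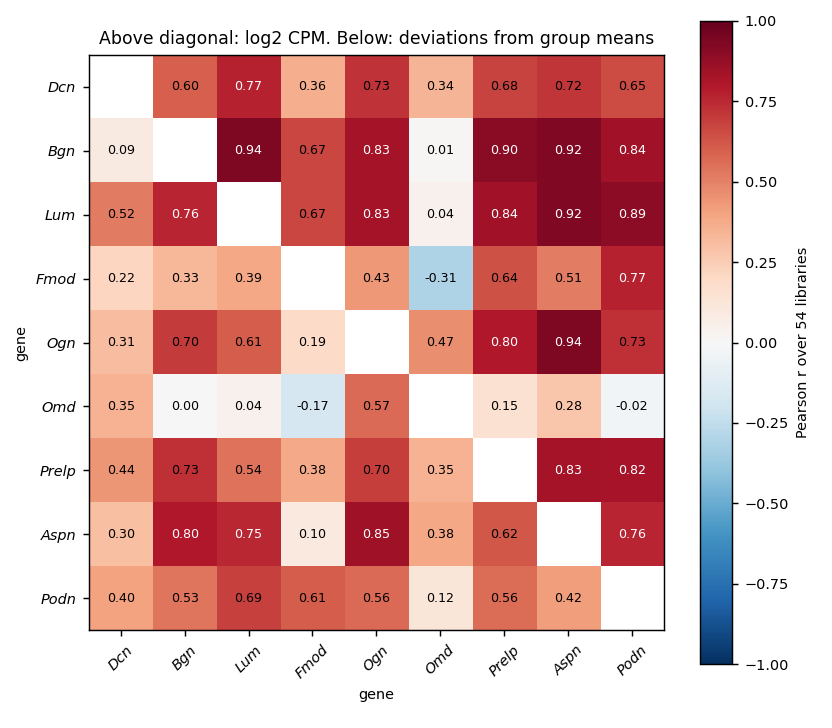
Pearson correlations between the 9 SLRP genes over 54 libraries, of log2 CPM above the diagonal and of deviations from the 9 group means below it. Bgn, Lum and Aspn form the darkest block, and the Omd row is near 0 for Bgn, Lum and Podn.

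Outside the family, among 13300 genes, the gene most like Dcn over the 54 libraries was Rnase4 (r = 0.90), followed by the fibroblast receptor gene Scara5 (0.84). Bgn was most like Loxl1 (0.99), a lysyl oxidase that cross-links elastin and collagen, and Plod2 (0.98), a collagen lysyl hydroxylase. Lum was most like Itm2a and Lrrc17 (0.98 for both), Podn most like the matrix gene Thbs2 (0.95), and Prelp most like Bace2 (0.95). Aspn was most like Fibin and Gask1b (0.96 for both), and Gask1b was also first for Ogn (0.95). Omd was most like Tcf21 (0.86), a transcription factor of resident cardiac fibroblasts and one of the fibroblast markers used here. Fmod had the loosest match among the members other than Omd, with Lama3, a laminin chain, at 0.86.

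The fibroblast score followed Dcn and Omd most closely within groups, with r of deviations of 0.75 and 0.67. The myofibroblast score did so for Bgn (0.93) and Lum (0.88), and the score of chondrocyte-type scar fibroblasts for Aspn (0.77) and Ogn (0.73). For Fmod the mesothelial score came first (0.78), and for Podn the mural score (0.62). These are descriptions over the same 54 libraries.

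The partners and makers of SLRPs changed as follows after infarction. Of all genes tested, 22.7%, 18.4% and 11.7% were called higher in MI in the infarct, border and remote zones. The share called lower is not given, so counts of falls have no background. All 7 fibrillar collagen genes rose in the infarct zone (median log2 fold change 2.81), with Col11a1 at 7.33 and Col1a1 at 3.70, 7 rose in the border and 6 in the remote zone, and none was called between cell sheet and MI in any zone. Among 7 tested of 9 further SLRP genes, 3 rose in the infarct zone, which were Epyc (3.49), Tsku (2.04) and Optc (0.79). Of 21 tested genes that build chondroitin and dermatan sulfate chains, 14 rose and 1 fell in the infarct zone, with Chsy3 at 2.00, the polymerizing factor Chpf at 1.65 and the sulfotransferase Chst15 at -0.89. For the border zone 14 rose and 2 fell, and in the remote zone 7 rose and 1 fell. Of 4 tested keratan sulfate genes, 2 rose in each zone, with Chst1 at 1.43 and B4galt4 at 0.42 in the infarct zone. Of 8 tested proteases that cleave SLRPs or their partners, 5 were higher in each zone, with the membrane-bound Mmp14 at 2.36 in the infarct zone. Pcolce, an enhancer of procollagen cleavage that is no protease itself, rose as well (2.37).

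Of 16 listed receptors and growth factors linked to decorin or biglycan, not all of them direct binders, 10 rose and 2 fell in the infarct zone. Beside them 22.7% of all genes were called higher. The largest rises were those of Met (2.22) and Tlr2 (1.99), and Kdr (-0.97) and Igf1r (-0.33) fell. With the cell sheet, 4 of the 16 were higher than in MI in the border zone, where 8.47% of all genes were called higher, among them the TGF-β co-receptor Tgfbr3 (1.04, adjusted p = 0.0104) and the endocytic receptor Lrp1 (0.89, adjusted p = 0.0312). For the remote zone 1 was higher and 2 were lower, where 10.3% of all genes were called higher and 6.79% lower. Of the chain-building genes, Chst3 was higher and B3gat3 lower with the sheet in the border zone (0.71 and -0.51), and no keratan sulfate gene or protease was called between cell sheet and MI in any zone. Proteoglycans of other families had 8 of 17 tested genes higher (beside 22.7%) and 2 lower in MI infarct zones. Sdc1 was at 2.87, Prg4 at 1.74, Spock2 at -1.85 and Gpc1 at -0.99. Of 18 tested in the border zone, 4 were higher with the sheet (again beside 8.47%), among them Spock2 (1.25, adjusted p = 0.0161) and perlecan, Hspg2 (1.12, adjusted p = 0.00343).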

How the data were processed

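Polyadenylated RNA of 54 left ventricular pieces was sequenced as paired-end reads. The authors aligned reads with STAR to mRatBN7.2 and deposited whole-number counts for each library, which are raw values. Which counter was run, and whether by strand, is not given in the sources used here. The 5 summary lines of each table name no gene, held 17.0% to 42.8% of counts and were left out. Members and gene lists were chosen with earlier results of these data known. All 9 members were described. From each list, the 2 largest rises and falls among called genes of MI against sham in the infarct zone and of cell sheet against MI in the border zone were named (Optc was named after its value was seen), and so were the 3 genes most like each member at a mean log2 CPM of at least 1, of which the closest are printed.

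Comparisons were tested by quasi-likelihood F in edgeR (edgeR 4.0.16, R 4.3.3, TMM, filterByExpr, Benjamini-Hochberg adjustment over all genes tested, threshold 0.05) on the compared groups alone, or with the animal as a block where zones of a heart were compared. Titles number the animals within a treatment, and a number was taken as the same animal in all 3 zones (deviations of such libraries correlated from -0.64 to 0.97). SE is the log2 fold change over the square root of F. Ratios to Dcn used an offset of 0.5 counts. Alternatives were DESeq2 1.42.0, no filter, at least 10 counts in every library, library sizes without TMM, the replicate number as a block, marker scores as covariates, all 9 groups in 1 fit, another reference or offset for ratios, and leaving out each library. Tests were tried first on simulated data. Pairs of libraries within a group differed by a chi-square per degree of freedom of 7.96 to 539 (135 pairs), so none was deposited in duplicate. Promoters came from RefSeq tables (GRCr8), and those of Dcn, Bgn and Prelp are not printed.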

Additional observations from a re-analysis of the deposited data

Results flagged for a closer look

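Of 81 groups of 6 libraries (9 members in 9 groups), 10 held a library far from the other 5 by Dixon's test, where chance marks about 1 in 20 groups. Sham replicate 5 gave 4 of them. Its Bgn was 616 CPM in the infarct zone (others 218 to 304) and 888 CPM in the remote zone (others 217 to 318), and its Podn was 39.1 CPM in the border zone (others 63.5 to 83.7) and 38.8 CPM in the remote zone (others 57.2 to 67.1). MI replicate 1 gave 2 in the infarct zone, with Bgn at 801 CPM (others 2391 to 3501) and Podn at 77.5 CPM (others 157 to 237). Cell sheet replicate 1 gave 2 in the remote zone, with Lum at 1206 CPM (others 212 to 335) and Aspn at 266 CPM (others 42.6 to 70.9). The other 2 were Dcn at 1935 CPM in cell sheet replicate 5 of the infarct zone (others 1399 to 1579) and Bgn at 1679 CPM in cell sheet replicate 2 of the border zone (others 2046 to 2301).

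Sham replicate 5 also had the highest T cell and macrophage marker scores and the lowest cardiomyocyte scores of the sham libraries in each zone, cell sheet replicate 1 had the highest fibroblast and myofibroblast scores of its group in the remote zone, and MI replicate 1 had the lowest myofibroblast and the highest cardiomyocyte score of its group in the infarct zone. Their part in the SLRP levels was not tested.

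The effect of infarction differed between infarct and remote zones, by the interaction test in edgeR, for Dcn (-0.55), Bgn (1.10), Omd (-0.57) and Podn (0.92), as differences of log2 fold changes, infarct zone minus remote zone.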

How the results depend on the processing

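Of 1010 values of called members recomputed under other settings, 879 stayed past the threshold in the same direction, 131 fell short of it and 0 changed sign. Of 697 values of members not called, 630 stayed so, 49 passed and 18 changed sign.

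Marker scores as covariates moved counts of members called. For MI against sham the infarct zone went from 7 to 4 (fibroblast) and 3 (cardiomyocyte), the border zone from 7 to 5 with either, and the remote zone from 7 to 0 and 1. Fibroblast scores of sham and MI did not overlap in the remote zone, so the fit that gave 0 could hardly part them from infarction. Cardiomyocyte scores overlapped only through sham replicate 5 in each zone, which limits the cardiomyocyte fits in the same way. For cell sheet against MI the border zone went from 0 to 1 (fibroblast), the remote zone from 3 to 1 (adipocyte), and the summed zones from 1 to 0 with either. Genes called were 3341 of 16272 in that border fit and 1179 of 15374 in that remote fit. In the summed zones they were 1442 (fibroblast) and 0 (adipocyte) of 17985. Signs turned with the fibroblast covariate for MI against sham in Dcn (-0.32, infarct), Omd (-0.38 in the infarct and -0.53 in the border zone), Fmod (-0.90, remote) and Podn (-0.54, remote), and for cell sheet against MI in the remote zone in Bgn (0.21), Lum (0.33), Prelp (0.12) and Podn (0.61). Of the remote cell sheet libraries, only replicates 1 and 4 had fibroblast scores within the MI range. With the adipocyte covariate Aspn turned in the border zone (0.049).

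For cell sheet against MI, DESeq2 called 3 members in the border and 5 in the remote zone, and 1 in each comparison of the sheet's effect between zones, where edgeR called 0. Of all genes DESeq2 called 3945 of 16272 in the border and 3831 of 15374 in the remote zone. Between zones it called 7.05% (border against remote) and 2.33% (infarct against border). At least 10 counts in every library gave 1 in the border zone, no filter gave 1 in the remote zone, and all 9 groups in 1 fit gave 2 in the border zone, with Bgn at -0.011 there. Shares of all genes called under these last settings are not given, so these counts of members have no background.

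The replicate numbers do not pair animals of different groups. Deviations of same-numbered libraries correlated from -0.81 to 0.67, and 11 of 54 correlated best with their own number. With a replicate block, cell sheet against MI had 2 members in the border zone, 0 in the remote zone and 0 in the summed zones. That setting called 1214 of 16272 genes in the border zone and only 2 of 15374 in the remote zone. Without the animal block (no replicate block), the MI effect between zones went from 4 to 0, and the comparison of zones in sham and in MI hearts to 2 each. For the fits without the animal block the share of all genes called is not given.

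Leaving out 1 library gave, for the sheet against MI, 0 to 1 members in the border zone (Fmod without MI replicate 2 or 3 or cell sheet replicate 3, adjusted p from 0.0197 to 0.0453, and Ogn without MI replicate 1 or cell sheet replicate 4, from 0.0444 to 0.0466), from 1 to 7 in the remote zone (7 on leaving out cell sheet replicate 1) and 0 to 1 in the summed zones (0 without MI replicate 5 or 6). It gave 0 to 3 for the sheet's effect in border against remote zone, 2 to 4 for the MI effect between zones and 2 to 4 for zones of MI hearts and 4 to 5 for those of sham hearts. Apart from 2 fits without cell sheet replicate 1, the share of all genes called on leaving out a library is not given, here or above. In cell sheet hearts Dcn failed without replicate 5 (adjusted p = 0.0502). For Bgn in the border zone the difference of cell sheet and MI ran from -0.14 to 0.10, and for Podn in the remote zone from -0.47 to 0.0054. Ratios to Dcn that differed numbered 3 to 5 for MI against sham in the border zone and 0 to 3 in the remote zone, and for cell sheet against MI 0 to 1 in the infarct and 1 to 3 in the border zone. With the sum of the other members as reference they were 5 and 3 for MI against sham in border and remote zones, and 3 for cell sheet against MI in the remote zone.

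Depth limits Fmod and Omd, whose counts fell to 21 and 73.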

Other observations

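Within groups, the genes whose deviations followed each member most closely were partly other matrix genes, given here as descriptions over 54 libraries. Mmp2 was first for Lum, Gpc6, a glypican, was first for Ogn and second for Aspn, followed for Aspn by Chpf, which helps to polymerize chondroitin sulfate. Thbs2 was first for Podn over deviations as it was over levels. Srpx2 was first for Bgn. For Omd the first genes were the fibroblast markers Tcf21 and Pi16. The list for Fmod was led by Tcf23. Among the closest genes listed for each member, only Ogn and Aspn had genes in common, Gpc6 and Gask1b. The lists of all remaining members, Fmod included, shared no gene with another list.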
